A study of Mus musculus with 6 samples.

Results

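The genes described here make, desaturate and burn long-chain fatty acids. They were chosen by symbol, as 39 genes listed by name without a threshold on their values, and sorted by role into 8 of synthesis, 4 of desaturation, 4 of acyl-CoA activation, 3 of the carnitine shuttle, 12 of beta-oxidation, 3 of electron transfer and 5 of regulation. Of the 39, 38 had a row among the 21718 genes of the count table and all 38 passed the filter on low counts. Cpt1b, the carnitine palmitoyltransferase of muscle, was not analysed here. Their RNA was read in prostate tumours, resistant to castration, of mice of 1 genetically engineered line. Recipients, aged 6 weeks, had 900 rad of irradiation and a transplant of donor bone marrow. Castration followed at 8 weeks and removal of the tumour 16 weeks after that. The F10-deleted group (3 samples, numbered 1, 3 and 4) received F10fl/fl; LysM-Cre+ marrow, in which Cre made from the myeloid lysozyme locus cuts the floxed gene of coagulation factor X. The F10-intact group (3 samples, also numbered 1, 3 and 4) received F10fl/fl marrow without Cre. Both groups therefore share the host line, the irradiation, the castration and the floxed F10 alleles, and only donor-derived myeloid cells were meant to lose F10, while tumour epithelium and stroma were those of the host. Nothing in the labels ties each sample to its own mouse, and the p-values cover no more than the spread among these samples.

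In a cell that makes fat, citrate leaves the mitochondrion and is split to acetyl-CoA, which acetyl-CoA carboxylase turns into malonyl-CoA and fatty acid synthase builds into palmitate. Elongases and desaturases then lengthen the chain and place double bonds. In the opposite direction, acyl-CoA synthetases activate fatty acids, the carnitine shuttle carries them into mitochondria and beta-oxidation shortens them, with malonyl-CoA blocking entry to the shuttle. Prostate cancers are known for a raised rate of fatty acid synthesis, driven in part by androgens.

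Stretches around gene starts are shown for Fasn, the synthase gene and a classical sterol-factor target, for Acaca, the member with the smallest p, for the transcription factor gene Mlxipl, and for Etfa and Etfb, which encode the 2 subunits of 1 flavoprotein and had fold changes of opposite sign. Scd1, with the next smallest p after Acaca, had no window in the table used. Each stretch runs from 250 bases before to 50 bases after a RefSeq start on GRCm38.p6, read 5′ to 3′ on the gene's own strand. Fasn and Acaca follow the selection rule; Mlxipl, Etfa and Etfb were added after their values were seen. Fasn lies at chr11:120824498-120824797 (minus strand), Acaca at chr11:84195188-84195487 (plus strand), inside the annotated gene, the Mlxipl starts at chr5:135089640-135089939 and chr5:135106641-135106940 (plus strand), Etfa at chr9:55512194-55512493 (minus strand) and Etfb at chr7:43443822-43444121 (plus strand). Capitals mark matches, on either strand, to the sterol regulatory element TCACNCCAC, the E-box CACGTG, the CCAAT box CCAAT or the PPAR element, which is AGGTCA, any base and AGGTCA again.
Fasn: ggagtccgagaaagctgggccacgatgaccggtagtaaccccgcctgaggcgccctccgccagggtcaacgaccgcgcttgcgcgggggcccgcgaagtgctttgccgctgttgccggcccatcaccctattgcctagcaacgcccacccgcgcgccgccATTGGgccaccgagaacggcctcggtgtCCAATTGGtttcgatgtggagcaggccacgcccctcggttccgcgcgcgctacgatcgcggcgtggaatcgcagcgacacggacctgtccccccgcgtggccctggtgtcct
Acaca: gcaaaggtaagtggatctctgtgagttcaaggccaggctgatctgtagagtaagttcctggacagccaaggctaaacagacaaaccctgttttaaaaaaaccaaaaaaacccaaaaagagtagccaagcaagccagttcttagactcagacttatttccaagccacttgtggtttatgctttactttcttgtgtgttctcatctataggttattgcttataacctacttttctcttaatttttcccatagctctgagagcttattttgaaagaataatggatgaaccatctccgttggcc
Mlxipl, upstream start: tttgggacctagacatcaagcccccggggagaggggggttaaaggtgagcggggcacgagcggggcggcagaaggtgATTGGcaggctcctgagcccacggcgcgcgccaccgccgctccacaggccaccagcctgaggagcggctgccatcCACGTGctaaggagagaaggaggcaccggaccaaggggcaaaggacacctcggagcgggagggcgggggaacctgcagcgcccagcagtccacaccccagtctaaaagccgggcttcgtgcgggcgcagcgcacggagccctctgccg
Mlxipl, downstream start: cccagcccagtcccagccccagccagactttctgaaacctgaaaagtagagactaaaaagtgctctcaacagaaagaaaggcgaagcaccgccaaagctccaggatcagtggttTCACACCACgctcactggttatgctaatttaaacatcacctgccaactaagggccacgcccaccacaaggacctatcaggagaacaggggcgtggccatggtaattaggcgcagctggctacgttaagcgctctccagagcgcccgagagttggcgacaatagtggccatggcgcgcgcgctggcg
Etfa: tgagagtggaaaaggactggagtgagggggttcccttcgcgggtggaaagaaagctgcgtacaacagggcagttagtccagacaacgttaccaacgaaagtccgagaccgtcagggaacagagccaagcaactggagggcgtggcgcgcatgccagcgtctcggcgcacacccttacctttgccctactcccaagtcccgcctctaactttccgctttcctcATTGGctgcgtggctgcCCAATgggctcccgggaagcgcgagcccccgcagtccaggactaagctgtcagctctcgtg
Etfb: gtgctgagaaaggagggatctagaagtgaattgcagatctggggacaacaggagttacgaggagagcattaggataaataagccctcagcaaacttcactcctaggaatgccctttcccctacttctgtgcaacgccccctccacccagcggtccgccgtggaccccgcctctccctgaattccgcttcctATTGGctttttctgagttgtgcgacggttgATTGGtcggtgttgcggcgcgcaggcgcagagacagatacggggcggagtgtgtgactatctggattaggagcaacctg
The Acaca window held none of the 4 motifs. The downstream Mlxipl window held the sterol element, its upstream window an E-box and a CCAAT box, the Fasn window 3 CCAAT boxes of which 2 share bases, and the Etfa and Etfb windows 2 CCAAT boxes each. RefSeq windows were found for 34 of the 39 genes. The sterol element occurred at 3 of the 34 (Acsl1, Ehhadh and Mlxipl), against 1.44% of 27025 genes and 1.24% of all 32851 windows of this length. The E-box occurred at 2 of the 34 (Elovl5 and Mlxipl), against 8.09% of genes and 7.15% of windows. The CCAAT box occurred at 20 of the 34, against 41.1% of genes and 37.4% of windows, and the PPAR element at 0 of the 34, against 0.0481% of genes and 0.0396% of windows. A match describes the letters in a window and not a bound site.

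The libraries held 9237308 to 11559980 counts in the F10-deleted group and 10520465 to 11821588 counts in the F10-intact group. Levels are CPM, counts scaled to library size with TMM factors, and each fold change sets F10-deleted over F10-intact samples in the edgeR quasi-likelihood test with Benjamini-Hochberg adjustment over all 15963 tested genes. That test called 7 genes at an adjusted p under 0.05, which is 0.0439% of the genes tested, and 2 genes (0.0125%) with the replicate number as a block. It called 1 gene without F10-deleted sample 1, 18 without F10-deleted sample 3, 0 without F10-deleted sample 4, while leaving out F10-intact sample 1, 3 or 4 gave 72, 0 and 5 genes. On the first principal component, with 47.6% of the variance, F10-intact sample 4 stood apart. Without it the log2 fold changes of Elovl1, Me1, Acsl1, Hadha, Ehhadh and Srebf1, all between -0.19 and 0.22 with it, were 0.21, 0.39, 0.09, 0.08, -0.02 and 0.08. Leaving out that sample also moved Eci1 from 0.09 to 0.26 and Etfa from 0.24 to 0.32. Further values without it are given beside some of the genes. The tissue matched its label: the epithelial genes Krt8, Krt18, Epcam and Cdh1 lay between 966 and 1359 CPM in the F10-deleted samples and between 851 and 1628 CPM in the F10-intact samples. In whole tumours, fewer cells of a type and less RNA per cell cannot be told apart.

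None of the 38 fatty acid genes passed the edgeR test, with or without the block; the lowest adjusted p was 0.142. At an unadjusted p under 0.05, edgeR placed 9 of the 38 higher and 2 lower in F10-deleted tumours, beside 6.15% and 4.74% of all genes, and with the block 10 higher and 2 lower, beside 7.64% and 6.76% of all genes. DESeq2 called 4 of the 38 higher and 0 lower, where it called 2.17% and 0.722% of genes, and limma-voom called 0. The groups did not overlap for 9 genes with higher and 2 with lower F10-deleted values, against 8.99% and 7.67% of all genes. Log2 fold changes were above 0 for 31 of the 38, against 47.3% of all genes, with a median of 0.19 beside -0.02 over all genes. The higher values lay with synthesis, desaturation and some of the regulators. Beta-oxidation stood close to 0.

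**Figure D1:**
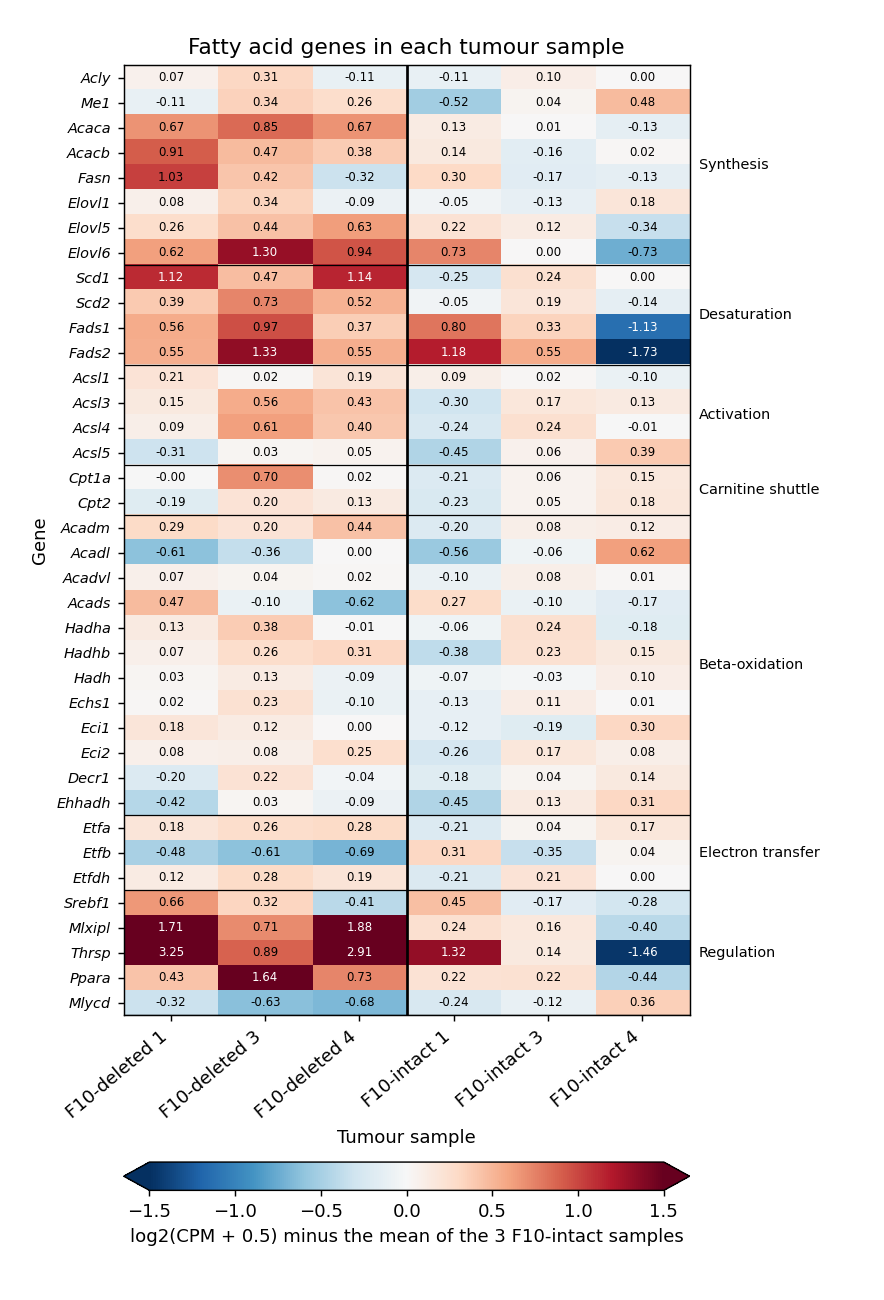
Level of each of the 38 genes in each tumour sample, as log2(CPM + 0.5) minus the mean of the 3 F10-intact samples, with F10-deleted samples in the left columns and rows ordered by role; red is above and blue below the F10-intact mean, and colours saturate at 1.5. Acaca, Scd1, Scd2 and Mlxipl were above 0 in all 3 F10-deleted samples, most beta-oxidation rows were pale, and Fads1, Fads2 and Elovl6 were at their lowest in F10-intact sample 4.

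**Figure D2:**
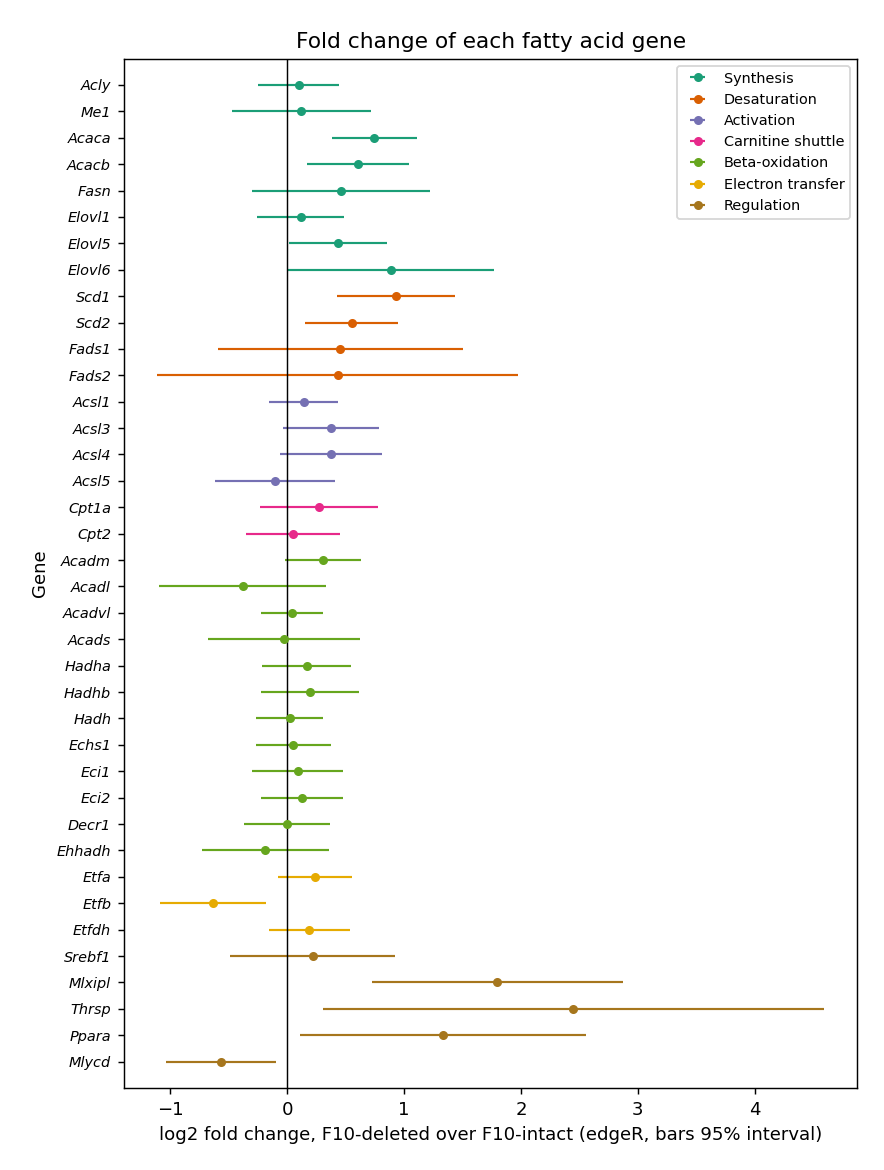
Log2 fold change of each gene, F10-deleted over F10-intact, from edgeR, with bars for the 95% interval and colours for the role. The intervals of Acaca, Acacb, Elovl5, Elovl6, Scd1, Scd2, Mlxipl, Thrsp and Ppara lay above 0, those of Etfb and Mlycd lay below 0, and all 12 beta-oxidation intervals included 0; these intervals are not adjusted for the number of genes.

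All 8 synthesis genes had log2 fold changes above 0, from 0.10 to 0.89, with a median of 0.45. Of the 8, 4 were higher at an unadjusted p under 0.05 (2 with the replicate block), beside 6.15% of all genes (7.64% with the block). The groups did not overlap for 3, beside 8.99% of all genes, and edgeR called 0 of the 8. Acaca (ENSMUSG00000020532, chromosome 11, 84129672 to 84401651, plus strand) encodes the cytosolic acetyl-CoA carboxylase, which makes malonyl-CoA in the committed step of synthesis. It had 24.6, 27.9 and 24.6 CPM in F10-deleted samples 1, 3 and 4, against 16.7, 15.3 and 13.9 CPM in F10-intact samples 1, 3 and 4. All 3 F10-deleted samples were above all 3 F10-intact samples, and the spread within each group was small. Its log2 fold change was 0.75 ± 0.16 (SE), with an edgeR adjusted p of 0.142 and a DESeq2 adjusted p of 0.0137. Leaving out 1 sample at a time gave 0.68 (F10-intact sample 4 left out) to 0.84 (F10-intact sample 1 left out). Of the 120-base windows of Acaca transcripts, the length of the reads, 21.5% also occur in other annotated genes, mainly Gm5182, which itself held 2 to 6 counts per sample.

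Acacb encodes the carboxylase found at the mitochondrial surface, whose malonyl-CoA restrains fatty acid entry. It had 41.5, 30.6 and 28.6 CPM in the F10-deleted samples, against 24.3, 19.5 and 22.2 CPM in the F10-intact samples, without overlap. Acacb had a log2 fold change of 0.61 ± 0.19 (SE; adjusted p = 0.301, edgeR). Fasn, the synthase itself, had 186.5, 122 and 72.8 CPM in the F10-deleted samples, against 112, 80.8 and 83.2 CPM in the F10-intact samples. The groups overlapped, since F10-deleted sample 4 was the lowest of all 6 and F10-deleted sample 1 the highest. Its log2 fold change was 0.46 (95% interval -0.30 to 1.22, edgeR adjusted p = 0.668), and 0.11 without F10-deleted sample 1.

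The elongases had unequal fold changes. Elovl6, which lengthens palmitate, had 16.3, 26.6 and 20.6 CPM in the F10-deleted samples, against 17.6, 10.5 and 6.12 CPM in the F10-intact samples, and its log2 fold change was 0.89 ± 0.38 (SE; adjusted p = 0.456, edgeR). The groups overlapped through F10-deleted sample 1. Leaving out F10-intact sample 4 gave 0.59, and leaving out F10-intact sample 1 gave 1.37. Elovl5, an elongase of polyunsaturated chains, had 93.7, 106 and 121 CPM in the F10-deleted samples, against 91.4, 84.9 and 61.7 CPM in the F10-intact samples, where the nearest values of the groups were close (log2 fold change 0.43 ± 0.18, SE, edgeR adjusted p = 0.44). Without F10-intact sample 4 its log2 fold change was 0.28. Elovl1, which serves very long chains, averaged 68.9 ± 10.4 CPM in F10-deleted and 63.7 ± 7.43 CPM in F10-intact tumours (SD, n = 3 each). Acly, the ATP citrate lyase that supplies acetyl-CoA, averaged 191 ± 28.6 CPM in F10-deleted and 178 ± 13.02 CPM in F10-intact tumours (SD, n = 3 each). Me1, the malic enzyme that supplies NADPH, averaged 128 ± 20.4 CPM in F10-deleted and 118 ± 39.4 CPM in F10-intact tumours. The groups overlapped for these last 3 genes, with log2 fold changes of 0.10 to 0.12.

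With all samples, the 4 desaturase genes had log2 fold changes above 0, with a median of 0.50, and they fell into 2 kinds. Without F10-intact sample 4, 3 were above 0 and 1 below with a median of 0.28, and without F10-intact sample 1 the median was 0.88. The stearoyl-CoA desaturase genes Scd1 and Scd2, which place the double bond of oleate and palmitoleate and are neighbours on chromosome 19, did not overlap between groups. Scd1 had 319, 202 and 323 CPM in the F10-deleted samples, against 123, 173 and 147 CPM in the F10-intact samples. F10-deleted sample 3 was closest to the F10-intact range. Scd1 had a log2 fold change of 0.93 ± 0.22 (SE), with an edgeR adjusted p of 0.181 and a DESeq2 adjusted p of 0.00649. Scd2 had 1173, 1482 and 1283 CPM in the F10-deleted samples, against 861.5, 1015 and 812 CPM in the F10-intact samples. Here F10-deleted sample 3 was the highest of all 6, the reverse of its place in Scd1. For Scd2 the log2 fold change was 0.55 ± 0.17 (SE), with an edgeR adjusted p of 0.301 and a DESeq2 adjusted p of 0.0477. Of the 120-base windows, 1.82% of those of Scd1 and 0.513% of those of Scd2 occur in another gene, so few reads of either could be placed on the other.

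Fads1 and Fads2, the front-end desaturases that make polyunsaturated fatty acids, varied more within the F10-intact group than between groups. Fads1 had 57.7, 77.0 and 50.4 CPM in the F10-deleted samples, against 68.1, 49.3 and 17.5 CPM in the F10-intact samples. Fads2 had 56.4, 97.4 and 56.3 CPM in the F10-deleted samples, against 87.6, 56.7 and 11.2 CPM in the F10-intact samples. F10-intact sample 4 was the lowest for both. The log2 fold change of Fads1 was 0.45 ± 0.44 and that of Fads2 0.43 ± 0.65 (SE, edgeR adjusted p = 0.774 and 0.872). Without F10-intact sample 4 they were 0.07 for Fads1 and -0.04 for Fads2.

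**Figure D3:**
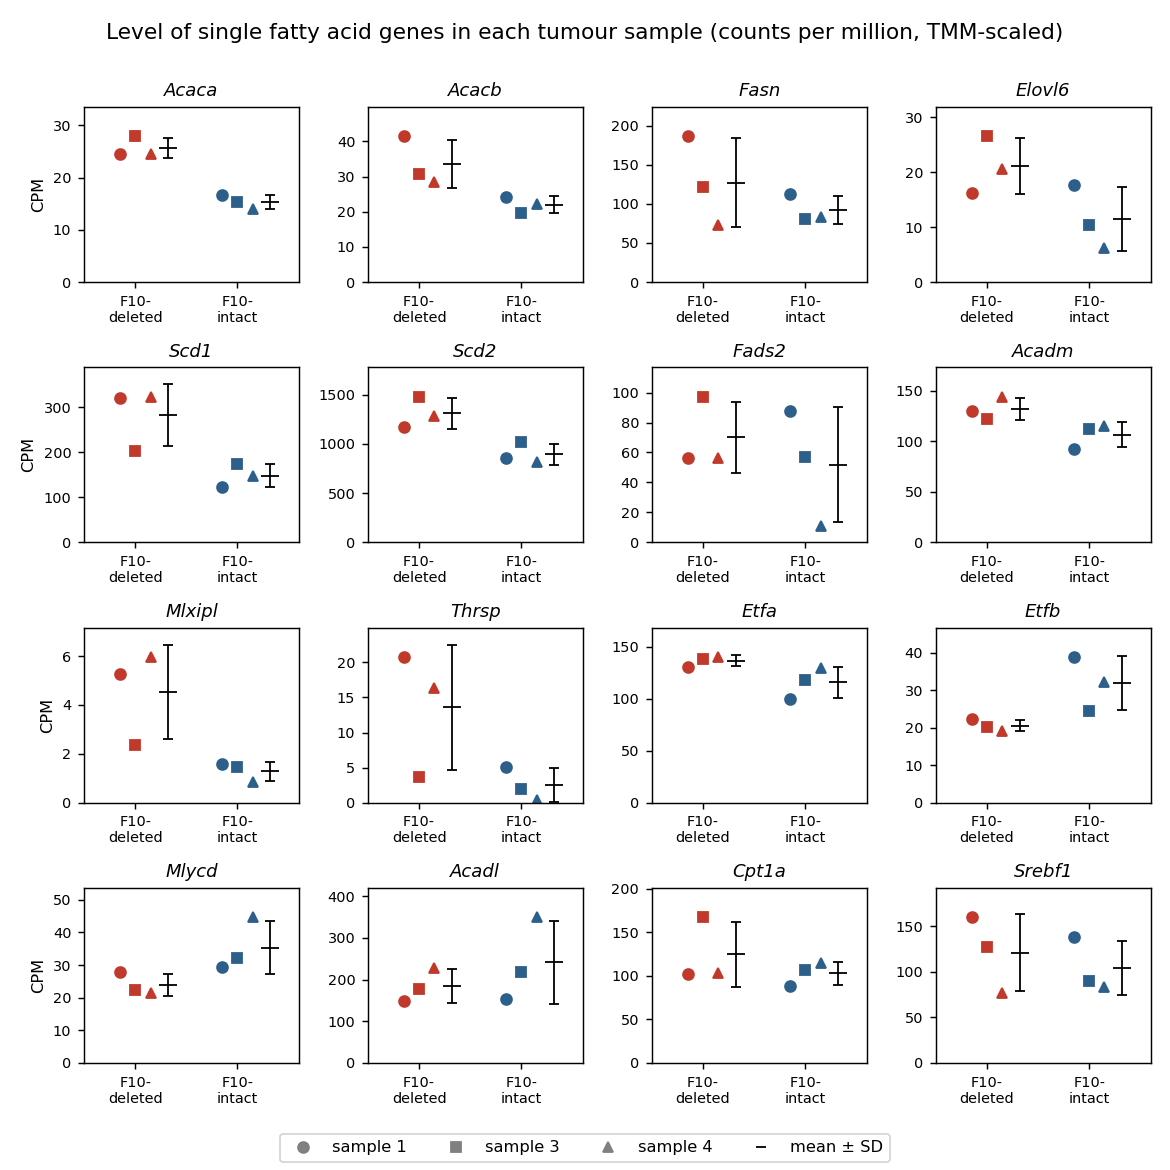
CPM of 16 single genes in each sample, with F10-deleted samples on the left of each panel, a marker shape for each sample number and black bars for the mean ± SD (n = 3); every axis starts at 0. Acaca, Acacb, Scd1, Scd2, Acadm, Mlxipl and Etfa lay higher and Etfb and Mlycd lower in every F10-deleted sample than in any F10-intact sample, while Fasn, Fads2, Cpt1a, Acadl and Srebf1 overlapped.

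The long-chain acyl-CoA synthetases Acsl1, Acsl3, Acsl4 and Acsl5 overlapped between groups. None had an unadjusted p under 0.05 in edgeR without the replicate block, and 2 of the 4, Acsl3 and Acsl4, had one with it. Acsl3 had 116, 155 and 141.5 CPM in the F10-deleted samples, against 84.9, 118 and 115 CPM in the F10-intact samples. Acsl4, which favours arachidonic acid, had 44.0, 63.4 and 54.7 CPM in the F10-deleted samples, against 35.0, 48.9 and 41.1 CPM in the F10-intact samples. For both, sample 1 was the lowest and sample 3 the highest of its group. Their log2 fold changes were 0.38 ± 0.18 for Acsl3 and 0.37 ± 0.19 for Acsl4 (SE, edgeR adjusted p = 0.501 and 0.533), and with the block 0.38 ± 0.09 for Acsl3 and 0.37 ± 0.10 for Acsl4 (SE, edgeR adjusted p = 0.225 and 0.247). Within each sample number the F10-deleted sample was the higher for both genes. Acsl1 had 65.8, 57.7 and 65.2 CPM in the F10-deleted samples, against 60.5, 57.5 and 53.0 CPM in the F10-intact samples, a log2 fold change of 0.14 (95% interval -0.15 to 0.44). Acsl5 had 170, 214 and 218 CPM in the F10-deleted samples, against 154, 219 and 275 CPM in the F10-intact samples. Its log2 fold change was -0.10 (95% interval -0.62 to 0.41), and 0.10 without F10-intact sample 4. Cpt1a, the gatekeeper of mitochondrial entry, had 103, 167.5 and 104 CPM in the F10-deleted samples, against 88.7, 107 and 114 CPM in the F10-intact samples. A single sample, F10-deleted sample 3, stood above the others, and the log2 fold change of 0.27 ± 0.22 (SE; adjusted p = 0.717, edgeR) was 0.03 without it. Cpt2, the inner-membrane partner, had 26.2, 34.6 and 32.9 CPM in the F10-deleted samples, against 25.6, 31.0 and 33.9 CPM in the F10-intact samples, a log2 fold change of 0.05 (95% interval -0.35 to 0.46).

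Of the 12 beta-oxidation genes, 8 had log2 fold changes above 0 and 4 below, with a median of 0.05 and a range from -0.38 to 0.31. None had an unadjusted p under 0.05 (1, Acadm, with the replicate block), and the groups of 11 overlapped. Acadm, the medium-chain acyl-CoA dehydrogenase, was the exception, with 130, 122 and 144 CPM in the F10-deleted samples, against 92.3, 112.5 and 115 CPM in the F10-intact samples. For Acadm the log2 fold change was 0.31 ± 0.14 (SE, edgeR adjusted p = 0.482). Acadl, the long-chain dehydrogenase, ran the other way, with 149, 178 and 229 CPM in the F10-deleted samples, against 155, 219 and 350 CPM in the F10-intact samples. Its groups overlapped, and the log2 fold change of -0.38 ± 0.30 (SE; adjusted p = 0.719, edgeR) was -0.01 without F10-intact sample 4.

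Hadha and Hadhb encode the alpha and beta subunits of the mitochondrial trifunctional protein, which carries out the later steps on long chains. Hadha had 198.5, 236 and 180 CPM in the F10-deleted samples, against 173, 214 and 160 CPM in the F10-intact samples. Hadhb had 69.1, 78.8 and 81.8 CPM in the F10-deleted samples, against 50.6, 77.1 and 72.9 CPM in the F10-intact samples. The groups overlapped for both, with log2 fold changes of 0.17 ± 0.17 for Hadha and 0.20 ± 0.18 for Hadhb (SE, edgeR adjusted p = 0.775 and 0.758).

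The remaining 8 lay close to equality. Acadvl, the very-long-chain dehydrogenase, averaged 145 ± 2.73 CPM in F10-deleted and 141 ± 8.87 CPM in F10-intact tumours (SD, n = 3 each), with a 95% interval of the log2 fold change from -0.23 to 0.31. Hadh, which oxidises short and medium hydroxyacyl-CoA, averaged 119 ± 8.90 CPM in F10-deleted and 117 ± 7.18 CPM in F10-intact tumours (95% interval -0.26 to 0.31). Echs1, the enoyl-CoA hydratase, averaged 114 ± 13.8 CPM in F10-deleted and 110 ± 9.16 CPM in F10-intact tumours (95% interval -0.27 to 0.38). For these 3 the intervals exclude a doubling in either direction. The isomerases Eci1 and Eci2, which serve unsaturated chains, had log2 fold changes of 0.09 and 0.13. The dienoyl-CoA reductase Decr1 was at -0.004, a value whose sign differed between scalings, the short-chain dehydrogenase Acads at -0.03 and the peroxisomal enzyme Ehhadh at -0.19, with edgeR adjusted p of 0.825 to 0.997 over these 5.

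Acyl-CoA dehydrogenases pass their electrons to the electron transfer flavoprotein, a dimer of Etfa and Etfb, and Etfdh passes them on to ubiquinone. Etfa had 131, 139 and 140 CPM in the F10-deleted samples, against 99.9, 118.5 and 129.5 CPM in the F10-intact samples. Etfb had 22.3, 20.3 and 19.2 CPM in the F10-deleted samples, against 38.9, 24.5 and 32.1 CPM in the F10-intact samples. Neither gene overlapped between groups, with Etfa higher and Etfb lower in the F10-deleted tumours. The log2 fold change was 0.24 ± 0.14 for Etfa and -0.63 ± 0.20 for Etfb (SE, edgeR adjusted p = 0.592 and 0.301). For Etfb, leaving out 1 sample at a time gave -0.79 (F10-intact sample 3 left out) to -0.43 (F10-intact sample 1 left out). As a ratio of levels per kilobase of exon within each sample, which no scaling between samples can alter, Etfa over Etfb was 3.73, 4.33 and 4.64 in the F10-deleted samples and 1.63, 3.06 and 2.56 in the F10-intact samples. In Etfb transcripts, 33.4% of 120-base windows are shared with Gm45233, an overlapping gene on the same strand that was not analysed here, and how such reads were counted is not given in the sources used here. Etfdh had 52.3, 58.5 and 54.8 CPM in the F10-deleted samples, against 41.3, 55.6 and 48.2 CPM in the F10-intact samples, a log2 fold change of 0.19 (95% interval -0.16 to 0.54).

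Of the 5 regulators, 4 had log2 fold changes above 0, with the widest range of any role, from -0.56 to 2.45. Srebf1 encodes the sterol-responsive factor SREBP1, which drives Acaca, Fasn and Scd1. It had 160, 127 and 76.2 CPM in the F10-deleted samples, against 138, 89.9 and 83.5 CPM in the F10-intact samples. The groups overlapped. Its log2 fold change was 0.22 (95% interval -0.49 to 0.92, edgeR adjusted p = 0.858), and it was -0.003 without F10-deleted sample 1. Sample 1 was the highest and sample 4 the lowest of its group, and in the F10-deleted group Fasn followed the same order.

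Mlxipl encodes ChREBP, the carbohydrate-responsive factor of lipogenic genes. It had 50, 28 and 70 counts (5.25, 2.37 and 5.97 CPM) in the F10-deleted samples, against 17, 17 and 8 counts (1.57, 1.46 and 0.829 CPM) in the F10-intact samples. The groups did not overlap. The log2 fold change was 1.80 ± 0.46 (SE), with an edgeR adjusted p of 0.219 and a DESeq2 adjusted p of 0.0293. Thrsp, a lipogenic protein abundant in fat and liver, had 198, 43 and 191 counts (20.8, 3.64 and 16.3 CPM) in the F10-deleted samples, against 55, 23 and 3 counts (5.08, 1.97 and 0.311 CPM) in the F10-intact samples. F10-deleted sample 3 was below F10-intact sample 1. Thrsp had a log2 fold change of 2.45 ± 0.91 (SE; adjusted p = 0.39, edgeR), and 1.94 without F10-intact sample 4. Ppara, the nuclear receptor that drives oxidation genes in liver, had 13, 45 and 21 counts (1.36, 3.81 and 1.79 CPM) in the F10-deleted samples, against 12, 13 and 5 counts (1.11, 1.11 and 0.518 CPM) in the F10-intact samples. In CPM its groups did not overlap, but F10-deleted sample 1 and F10-intact sample 3 had the same 13 counts. At these counts the log2 fold change of 1.33 ± 0.53 (SE; adjusted p = 0.416, edgeR) was 0.81 without F10-deleted sample 3.

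Mlycd, the decarboxylase that destroys malonyl-CoA, was, beside Etfb, the other gene whose F10-deleted values all lay below the F10-intact values. It had 27.8, 22.3 and 21.6 CPM in the F10-deleted samples, against 29.4, 32.1 and 44.7 CPM in the F10-intact samples, and its log2 fold change was -0.56 ± 0.20 (SE; adjusted p = 0.364, edgeR), and -0.36 without F10-intact sample 4. Acaca makes what Mlycd removes. The ratio of Acaca over Mlycd per kilobase of exon was 0.154, 0.217 and 0.198 in the F10-deleted samples and 0.0989, 0.0832 and 0.0540 in the F10-intact samples, without overlap. Acadm over Acadl was 0.447, 0.352 and 0.323 in the F10-deleted samples and 0.306, 0.264 and 0.168 in the F10-intact samples, also without overlap. Scd1 over Scd2 was 0.304, 0.152 and 0.281 in the F10-deleted samples and 0.160, 0.190 and 0.202 in the F10-intact samples. F10-deleted sample 3 was the lowest of all 6. Hadha over Hadhb, the subunit pair of the trifunctional protein, was 2.17, 2.26 and 1.66 in the F10-deleted samples and 2.59, 2.10 and 1.66 in the F10-intact samples, and the groups overlapped. These pairs were picked after their values were seen, and no test was made of the ratios.

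**Figure D4:**
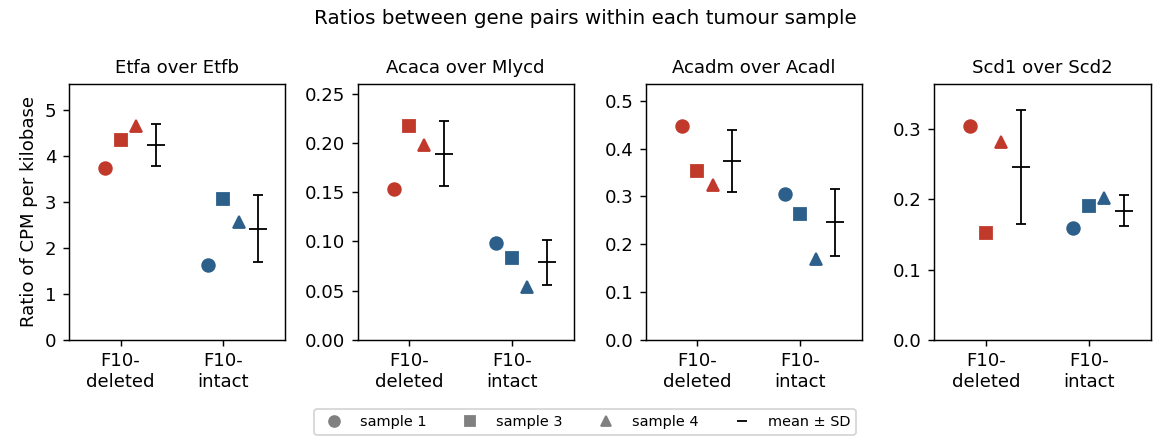
Ratio of CPM per kilobase of exon between 2 genes within each sample, for 4 gene pairs, with F10-deleted samples on the left of each panel, a marker shape for each sample number and black bars for the mean ± SD (n = 3). Etfa over Etfb, Acaca over Mlycd and Acadm over Acadl were higher in every F10-deleted sample than in any F10-intact sample, and Scd1 over Scd2 overlapped.

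Levels per kilobase of exon placed Scd2 first in both groups, at 240.2 CPM per kilobase in F10-deleted and 164 in F10-intact tumours. Acadl followed at 92.3 in F10-deleted and 120.2 in F10-intact tumours, and Etfa at 74.4 in F10-deleted and 63.2 in F10-intact tumours. Scd1 was the 4th in F10-deleted tumours at 57.6 CPM per kilobase and the 8th in F10-intact tumours at 30.2. Ppara and Mlxipl were the lowest of the 38 in F10-intact tumours, at 0.238 and 0.232 CPM per kilobase, and the lowest in F10-deleted tumours too, at 0.605 and 0.818.

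Samples within a group did not move as a block. F10-deleted sample 3 held the highest value of the 6 samples for 17 of the 38 genes and the lowest for 0. Its highest values included Acaca, Elovl6, Scd2, Fads1, Fads2 and Cpt1a, while Fasn, Acacb, Srebf1 and Thrsp were highest in F10-deleted sample 1, and Scd1, Acadm and Mlxipl in F10-deleted sample 4. F10-intact sample 1 held the lowest value for 15 genes, among them Cpt1a, Acadm, Hadhb and Etfa. F10-intact sample 4 held the lowest for 11 genes, among them Acaca, Elovl6, Scd2, Fads1 and Fads2, and the highest for 6, among them Acadl, Ehhadh, Acsl5 and Mlycd. As averages over a role, relative to the F10-intact mean, synthesis stood, in log2 units, at 0.44, 0.56 and 0.29 across F10-deleted samples 1, 3 and 4 and at 0.10, -0.02 and -0.08 in the F10-intact samples. Beta-oxidation stood at 0.01, 0.10 and 0.01 in the F10-deleted samples and at -0.19, 0.06 and 0.12 in the F10-intact samples.

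Markers of other cell types differed between the groups as well. The 14 adipocyte markers, all in the table, summed to 427, 287 and 492 CPM in the F10-deleted samples and to 168, 131 and 181 CPM in the F10-intact samples. Their average relative to the F10-intact mean on the log2 scale was 2.25, 0.56 and 2.54 in the F10-deleted samples and 0.49, -0.11 and -0.37 in the F10-intact samples. An exact two-sided permutation test of that average gave p = 0.1, the smallest that 3 against 3 allows. The marker lists were chosen with earlier results of these data known, so this p and those below only describe the values. The defining marker Adipoq was at 9.77, 1.18 and 17.4 CPM in the F10-deleted samples and at 3.60, 0.686 and 0.207 CPM in the F10-intact samples. Within the F10-deleted group, Scd1, Mlxipl and Thrsp were lowest in sample 3, as Adipoq was, whereas Acaca, Scd2 and Elovl6 were highest in sample 3. Most but not all adipocyte markers were, like Adipoq, lowest in sample 3 of that group. Samples 1 and 4 changed places between markers, and Plin1, Cfd and Pck1 were highest in sample 1. Pparg, at 22.2, 61.1 and 27.1 CPM in F10-deleted samples 1, 3 and 4, was highest in sample 3. Fabp4, at 101, 115 and 141 CPM there, was lowest in sample 1. Its F10-intact values lay between 9.746 and 14.95 CPM, so its groups did not overlap. Fabp4 passed the edgeR test, with a log2 fold change of 3.24 ± 0.21 (SE, adjusted p = 0.00741). With the replicate block its edgeR adjusted p was 0.067. Lipe had a log2 fold change of -0.13 and was highest in F10-intact sample 4, at 99.4 CPM. The 17 skeletal muscle markers summed to 2439, 1019 and 2375 CPM in the F10-deleted samples and to 183, 47.7 and 34.7 CPM in the F10-intact samples (exact permutation p = 0.1 for their average). No adipocyte or muscle marker was at 0 in all 3 samples of a group. The 6 basal markers summed to 2866, 3738 and 2238 CPM in the F10-deleted samples and to 2037, 1344 and 852.5 CPM in the F10-intact samples. Their log2 average was higher in every F10-deleted sample (exact permutation p = 0.1). The 10 luminal markers summed to 6538, 7608 and 7385 CPM in the F10-deleted samples and 6516, 7340 and 8145 CPM in the F10-intact samples, which overlap. Their log2 average was lower in every F10-deleted sample, at -0.59, -0.35 and -0.30 against -0.17, -0.02 and 0.19 (exact permutation p = 0.1). The 6 fibroblast markers summed to between 1406 and 1489 CPM in F10-deleted and between 1238 and 1461 CPM in F10-intact samples, which overlap. Their log2 average was higher in every F10-deleted sample, at 0.53, 0.46 and 0.45 against 0.10, -0.08 and -0.02 (exact permutation p = 0.1). That average rested on the collagens Col1a1, Col1a2 and Col3a1, with log2 fold changes of 1.21, 0.89 and 0.88. Dcn, Lum and Pdgfra were at -0.13, 0.04 and 0.01. The 6 smooth muscle markers summed to between 934 and 1854 CPM in F10-deleted and between 613 and 2348 CPM in F10-intact samples (exact permutation p = 0.7 for their average). The 6 macrophage markers summed to between 279 and 286 CPM in F10-deleted and between 257.5 and 313.5 CPM in F10-intact samples (exact permutation p = 0.8 for their average). Of 6 hepatocyte markers 2 were in the table (exact p = 0.3 for their average): Alb was at 0.0923 to 0.507 CPM over the 6 samples, and Ttr was at 1.47, 12.7 and 1.62 CPM in the F10-deleted samples and at 1.75, 1.97 and 0.207 CPM in the F10-intact samples. F10-deleted sample 3, high in Ttr, was the highest for 17 of the 38 fatty acid genes, Ppara and Cpt1a among them. The part that any of these cell types has in the fatty acid values was not tested.

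**Figure D5:**
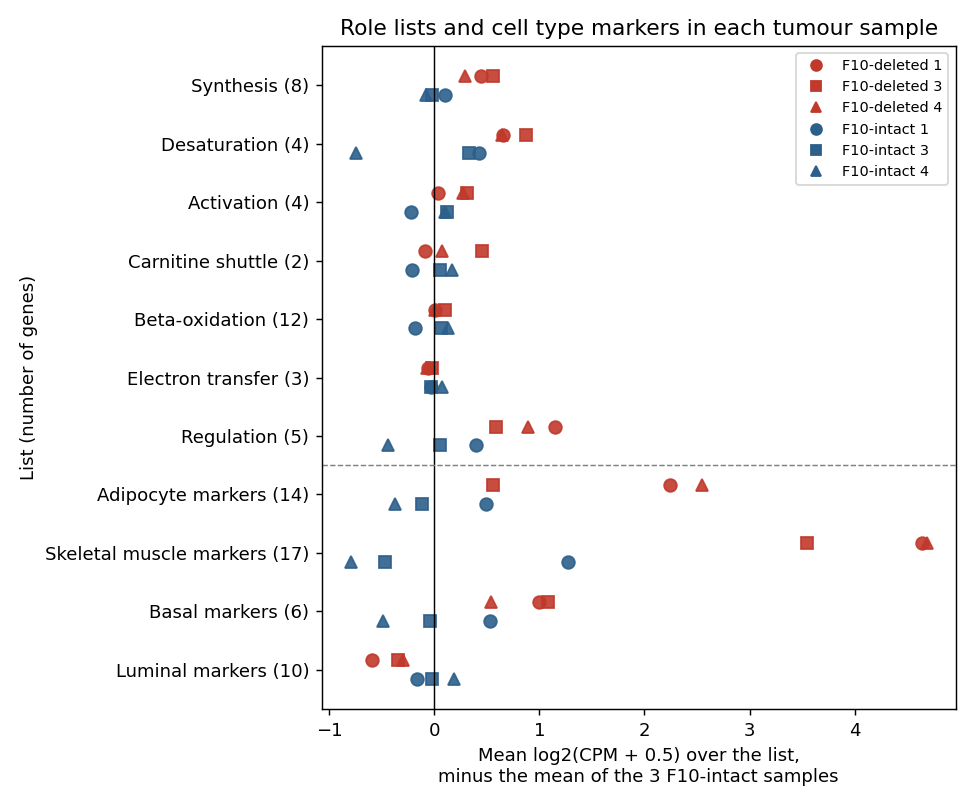
Average over each role (top) and over 4 marker lists (bottom) of log2(CPM + 0.5) in each sample, relative to the mean of the 3 F10-intact samples, with the number of genes in brackets, F10-deleted samples in red above F10-intact samples in blue and a marker shape for each sample number. Synthesis, desaturation and regulation averages were higher in every F10-deleted sample, beta-oxidation averages lay within 0.2 of 0 in both groups, and adipocyte and muscle markers were higher in F10-deleted samples 1 and 4 than in F10-deleted sample 3.

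Other genes of the same pathways were read from 2 further lists. Of 30 further genes of synthesis, elongation and its control, 27 were tested: 14 had log2 fold changes above 0 and 13 below, and the median was 0.01. The edgeR test called 0, with 1 higher and 0 lower at an unadjusted p under 0.05, beside 6.15% and 4.74% of all genes. The average over this list overlapped between groups. Those with the smallest p were Acsl6, an acyl-CoA synthetase, at 1.73 ± 0.51, Tecr, the last enzyme of the elongation cycle, at -0.28 ± 0.14, Srebf2, the sterol factor of cholesterol genes, at 0.29 ± 0.15, and Acsbg1, a further synthetase, at 0.85 ± 0.44 (log2 fold change ± SE, edgeR adjusted p from 0.271 to 0.543). Slc25a1, the citrate carrier, was at 0.23 and Acss2, which makes acetyl-CoA from acetate, at 0.04. Of 28 further genes of oxidation, all were tested, 16 were above 0 and 12 below, the median was 0.03, and edgeR called 0, with 4 higher and 1 lower at an unadjusted p under 0.05. The average over this oxidation list, computed as for the roles, did not overlap between groups. On the log2 scale it stood at 0.177, 0.336 and 0.114 in F10-deleted samples 1, 3 and 4. F10-intact samples 1, 3 and 4 stood at -0.0332, 0.0378 and -0.00461. DESeq2, which called 2.17% of all genes higher, called 1 of the 28, Pdk4, the kinase that shuts pyruvate dehydrogenase. In edgeR, Pdk4 was at 1.85 ± 0.58 (SE, adjusted p = 0.308), and at 1.38 without F10-intact sample 4. It had 17.4, 13.7 and 17.6 CPM in the F10-deleted samples, against 6.64, 5.83 and 0.933 CPM in the F10-intact samples. The other 3 with the smallest p were Abcd2, a peroxisomal importer, at 1.66 ± 0.46, Acaa1b, a peroxisomal thiolase, at 3.20 ± 0.94, and Crat, the carnitine acetyltransferase, at 0.35 ± 0.12 (SE, edgeR adjusted p = 0.247, 0.286 and 0.347). Acaa1b had 42.9 CPM in F10-deleted sample 3 and 4.18 to 5.67 CPM in the other F10-deleted samples, against 1.63 to 2.22 CPM in the F10-intact samples, and its log2 fold change was 1.39 without F10-deleted sample 3.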

How the data were processed

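The authors deposited raw counts of reads for each Ensembl gene in 6 tumour samples, as 1 table. Libraries were poly-A and strand-specific, with 120-base single-end reads, per the labels' protocols. STAR 2.7.10a, build GRCm38 and DESeq2 (no version or role) are named in the submitters' processing notes; neither these notes nor the labels name the read counter, how it treated strand or which annotation it used. Reads of overlapping genes (15 of the 39 members overlap an annotated exon of another gene) therefore cannot be assigned with certainty. Symbols, coordinates and exon lengths came from GENCODE M21 (GRCm38), which matched 21605 identifiers and left 113 unmatched.

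Counts were tested with edgeR 4.0.16 (R 4.3.3; TMM, robust quasi-likelihood, filterByExpr at a minimum count of 10, adjusted p under 0.05); DESeq2 1.42.0 and limma-voom (limma 3.58.1) were alternatives, with other scalings, filters, the replicate block and each sample left out. SE is the log2 fold change over the root of the F statistic. The edgeR test was tested on simulated data. Log levels use a pseudocount of 0.5. Members, lists and motifs were chosen with earlier results of these data known. Genes given in every sample were the defining member of each role and up to 4 members per role with the smallest p. Same-numbered samples deviated together (correlations of 0.372, 0.14 and 0.186 for numbers 1, 3 and 4, all above 0.1), although the labels name no shared day or animal. The numbers were used only as the block of an alternative edgeR fit. The main test took the samples as unpaired, and values are from it unless the block is named. Samples of 1 group differed by more than counting noise (chi-square per degree of freedom of 24.4 to 84.3). Protein sequences were not used here. The host line's engineered allele and 1 marker gene are not reported here.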

Additional observations from a re-analysis of the deposited data

How the results depend on the processing

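The cause of the changes below was not tested. The 38 fatty acid genes kept their edgeR side of the threshold under every scaling, filter, block and left-out sample, where 0 of the 38 passed, and limma-voom called 0; DESeq2 called 4 of the 38 (1 of synthesis, 2 of desaturation and 1 regulator) and 1 of the further oxidation genes. Over all genes the count of 7 became 493 with DESeq2, 2 with limma-voom, 2 with a filter of 1 CPM in 3 samples, 3 with a non-robust fit, 2 with the replicate block, 85 at an adjusted p under 0.1, and 0 to 72 with 1 sample left out; the block changed no other call. The median of all genes moved by less than 0.1 under each scaling. Decr1 lay at -0.004 and turned to 0.0081 with DESeq2, 0.0068 with RLE scaling, 0.010 with the 1 CPM filter, 0.010 with no filter, 0.026 with scaling without the top genes and 0.019 with upper quartile scaling. With 1 sample left out, the median log2 fold change ranged from 0.17 to 0.27 over all members, 0.37 to 0.62 in synthesis, 0.28 to 0.88 in desaturation, 0.23 to 0.33 in activation, 0.02 to 0.31 in the carnitine shuttle, 0.03 to 0.10 in beta-oxidation, 0.12 to 0.26 in electron transfer and 0.81 to 1.62 in regulation. Under the same omissions 9 members changed sign: Me1 (-0.067 to 0.39), Fads2 (-0.044 to 1.06), Acsl5 (-0.27 to 0.10), Cpt2 (-0.023 to 0.20), Acads (-0.32 to 0.20), Echs1 (-0.014 to 0.13), Eci1 (-0.0064 to 0.26), Decr1 (-0.095 to 0.12) and Srebf1 (-0.0034 to 0.51). Depth limits Mlxipl, Ppara and Thrsp most, with 3 to 198 counts per sample.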
